A study of Homo sapiens with 6 samples.

Results

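A set of 10 long noncoding RNA genes, MALAT1, NEAT1, KCNQ1OT1, NORAD, TUG1, OIP5-AS1, PVT1, H19, MIR17HG and DANCR, was followed through RNA-seq of K562 cells in which a subunit of the m6A methyltransferase had been knocked down. The 10 genes were chosen by name, and the rows whose Ensembl identifier maps to those symbols were taken from a count table of 61661 identifiers. K562 is a chronic myeloid leukemia line from a pleural effusion, taken in blast phase. There were 6 libraries in 3 groups of 2: shCTR cells, which carried a control shRNA and are labelled WT, shMETTL3 cells, labelled METTL3 knockdown, and shMETTL14 cells, labelled METTL14 knockdown. The study's methods describe the shCTR and shMETTL3 cells as stable lines made with a U6-driven lentivirus that also carries GFP and puromycin resistance, and name 1 shRNA against METTL3, while the making of the shMETTL14 cells is not described in the sources used here. All cells were grown in the same serum-containing medium and collected in logarithmic growth.

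The m6A methyltransferase places a methyl group on adenosines of RNA, with METTL3 as the catalytic subunit and METTL14 as its partner in holding the RNA. Methylated adenosines mostly lie in a GGAC context, and several abundant nuclear long noncoding RNAs, MALAT1 among them, are known to carry them. Long noncoding RNAs work as RNA. NEAT1 scaffolds a nuclear body, MALAT1 is held in another, and some act on genes in cis at their own locus (KCNQ1OT1, PVT1). Others bind proteins or microRNAs in the cytoplasm (NORAD, OIP5-AS1), and some are precursors of microRNAs (MIR17HG).

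Library totals ran from 19292574 to 20115304 reads. METTL3 counts were 1788 and 1728 in shCTR, 1031 and 938 in shMETTL3, and 1731 and 1498 in shMETTL14, so that its level fell by 45.1% in shMETTL3 (edgeR quasi-likelihood test, Benjamini-Hochberg adjusted p = 3.44e-07). METTL14 counts were 656 and 655 in shCTR, 752 and 710 in shMETTL3, and 375 and 404 in shMETTL14, and its level in shMETTL14 fell by 41.1% (adjusted p = 1.40e-05). Both knockdowns were thus partial at the RNA level. All 10 markers of the erythroid leukemia line, such as GATA1, were measured, with a summed level of 1254 to 1369 CPM in shCTR, 1507 to 1651 in shMETTL3 and 1429 to 1432 in shMETTL14. Of the markers of other cells, those of T cells, B cells and fibroblasts summed to at most 6.62 CPM in any library, those of epithelial cells to 136 to 143 CPM in shCTR, 106 to 109 in shMETTL3 and 126 to 130 in shMETTL14, and the monocyte markers CD14 and CSF1R were too low to test. The monocyte marker LYZ had 830 and 840 reads in shCTR, 324 and 310 in shMETTL3, and 1177 and 1273 in shMETTL14, and the part of these markers in the results below was not tested. Nothing in the labels says that libraries of a group came from separate cultures, so the p-values measure the spread between these libraries, which may be technical. In bulk RNA, fewer cells with a transcript and less of it per cell cannot be told apart.

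The stretches of sequence in which these RNAs carry their described functions are shown first, in the sense of the RNA and with T for U, from GENCODE 29 on GRCh38. In MALAT1 they are the GGACT whose A, at position 2577 of the transcript of 8708 nt, is the described m6A site next to a tract of T (an HNRNPC-binding tract in the RNA), and the T-rich and A-rich tracts that form the triple helix protecting its 3′ end, which has no poly(A) tail. The GGACT lies at chr11:65500318-65500347, the T-rich tract at chr11:65506019-65506048 and the A-rich tract at chr11:65506087-65506116, all on the plus strand. NEAT1 ends in the same kind of A-rich tract, at chr11:65445511-65445540 on the plus strand. Capitals mark the GGACT, the T-rich tract and the A-rich tracts.
MALAT1 GGACT: acttaatgtttttgcattGGACTttgagtt
MALAT1 T-rich tract: gtcatgaaggTTTTTCTTTTcctgagaaaa
MALAT1 A-rich tract: ttttctagcttaaaaaaaaAAAAAGCAAAA
NEAT1 A-rich tract: ctgtgaaagagtgagcaggAAAAAGCAAAA

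The A-rich tract of NEAT1 stood 0 nt from the annotated end of its longest transcript, and that of MALAT1 353 nt from it. These tracts matter for the measurement, because the libraries were made from RNA bound to oligo(dT) beads. Of 12 matched RNAs that mostly lack a poly(A) tail, 7 had no more than 3 reads in any library, RN7SL1, RMRP, RPPH1 and TERC among them. These 7 are also short, from 99 nt of exon (VTRNA1-1) to 541 nt (TERC), and the part of length in their counts was not tested. The summed level of the 12 was 667 and 703 CPM in shCTR, 801 and 777 in shMETTL3 and 762 and 797 in shMETTL14, most of it from the histone gene H1-2, and its part in the values of MALAT1 and NEAT1 was not tested.

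NORAD is known for repeats that bind PUM2, a repressor of mRNAs, at the motif TGTANATA. Its transcript of 5339 nt held 15 such motifs, the first starting at position 761 and the last at position 4599, or 2.81 per kb. Of 4677 other long noncoding transcripts of at least 1000 nt, 18.8% held the motif at all. The copies below, at chr20:36049808-36049827, chr20:36049506-36049525, chr20:36047976-36047995 and chr20:36047673-36047692 on the minus strand, are shown with the bases on either side of the motif, which is in capitals.
NORAD site 2: ctactgTGTATATAgttgac
NORAD site 4: tatctgTGTATATAgtgtac
NORAD site 11: ctactgTGTATATAgcggac
NORAD site 12: gtgctgTGTATATAgtgtat

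MIR17HG is the precursor of the miR-17-92 cluster, whose microRNAs lie between chr13:91350618-91350640 (miR-17-5p) and chr13:91351361-91351382 (miR-92a-3p) on the plus strand of GRCh38.p14 in RefSeq. Capitals mark the seed, bases 2 to 8, with which a microRNA pairs to its targets. By shared seed, miR-17-5p and miR-20a-5p form a group, miR-19a-3p and miR-19b-3p another, and miR-18a-5p and miR-92a-3p each stand alone.
hsa-miR-17-5p: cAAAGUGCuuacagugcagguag
hsa-miR-20a-5p: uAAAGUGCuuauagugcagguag
hsa-miR-18a-5p: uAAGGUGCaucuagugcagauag
hsa-miR-19a-3p: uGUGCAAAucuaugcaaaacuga
hsa-miR-19b-3p: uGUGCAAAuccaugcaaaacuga
hsa-miR-92a-3p: uAUUGCACuugucccggccugu

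OIP5-AS1, also known as Cyrano, carries a described site of near-complete pairing to miR-7, at chr15:41300572-41300601 on the plus strand, where capitals mark the match to the seed and the base after it. The sequence GTCTTCC, which pairs with the seed of miR-7-5p, occurred 3 times in its longest transcript.
OIP5-AS1 miR-7 site: agaacaacaaaatcaccaatGTCTTCCAtt
hsa-miR-7-5p: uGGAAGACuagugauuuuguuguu

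The sequence GGACT, a form of the m6A context read on the sense strand, occurred in 84% of the 4677 other long noncoding transcripts, at a median of 0.888 per kb. MALAT1 held 13 copies, or 1.49 per kb, a density above that of 76.6% of those transcripts. KCNQ1OT1 held 79 copies (0.862 per kb), NEAT1 19 (0.835 per kb), TUG1 7 (0.937 per kb), OIP5-AS1 7 (0.793 per kb), PVT1 2 (1.18 per kb), H19 2 (0.852 per kb), NORAD 2 (0.375 per kb), MIR17HG 1 (0.351 per kb) and DANCR 0. A copy of these letters is not a methylated site, and methylation was not measured in these libraries.

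Of the 10 genes, 9 passed the filter on low counts and were tested, and H19, the imprinted RNA beside IGF2 on chromosome 11 (1995176 to 2001470, minus strand, GRCh38), was too low to test. H19 had 4 and 4 reads in shCTR, 11 and 6 in shMETTL3, and 5 and 4 in shMETTL14. Its level of 0.202 to 0.560 CPM in all libraries was above the 3 reads taken as the floor, but no direction could be read from so few reads, and the floor covers counting error only. Fitted without a filter, its log2 fold change in shMETTL3 was 1.03 (SE 0.624, adjusted p = 0.508).

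Per kilobase of exon, the level was highest for DANCR, with a mean of 92.1 CPM per kb over the 6 libraries and a range of 83.1 to 98.4. NORAD followed with 66.2 CPM per kb, MALAT1 with 40.6 and NEAT1 with 26.5, and none of these ranges overlapped the next. MIR17HG had 15.9 CPM per kb, TUG1 12.1 and OIP5-AS1 11.2, with ranges that overlapped between MIR17HG and TUG1 and between TUG1 and OIP5-AS1. PVT1 had 3.12 CPM per kb, KCNQ1OT1 0.540 and H19 0.0995. The order depends on the annotated exon length, which is 91667 nt for the unspliced KCNQ1OT1 and 2285 nt for DANCR.

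**Figure D1:**
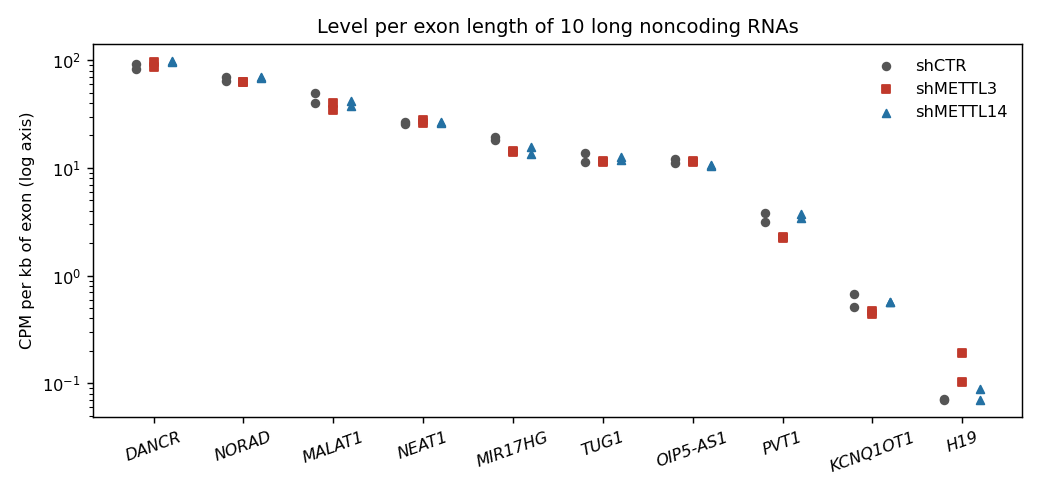
Level of each of the 10 RNAs per kilobase of exon, in CPM per kb on a log axis, with 1 point for each of the 6 libraries, coloured by group. DANCR is highest at 83.1 to 98.4 CPM per kb and H19 lowest, at no more than 0.193.

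In shMETTL3 against shCTR, 4 of the 9 tested RNAs fell, PVT1, MIR17HG, KCNQ1OT1 and MALAT1, and 0 rose. Over all 17686 genes tested, 16.5% passed the threshold of an adjusted p under 0.05, with 7.73% lower and 8.73% higher in shMETTL3. The median log2 fold change of the 9 was -0.14, against 0.00299 over all genes tested. Among the 2478 tested long noncoding genes of GENCODE 29, 94 rose and 88 fell, which together make 7.34%.

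In shMETTL14 against shCTR, only MIR17HG of the 9 passed the threshold, and it fell. Of all genes tested, 6.69% passed in this comparison, 3.26% as lower and 3.43% as higher. The median log2 fold change of the 9 was -0.04, against -0.00014 over all genes. In shMETTL3 against shMETTL14, which tests the difference between the knockdowns, PVT1 and KCNQ1OT1 were lower in shMETTL3, and none of the 9 was higher. Of all genes, 12.1% passed there, 5.49% as lower and 6.65% as higher in shMETTL3. The 3 comparisons share libraries, so their values are not independent of each other.

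**Figure D2:**
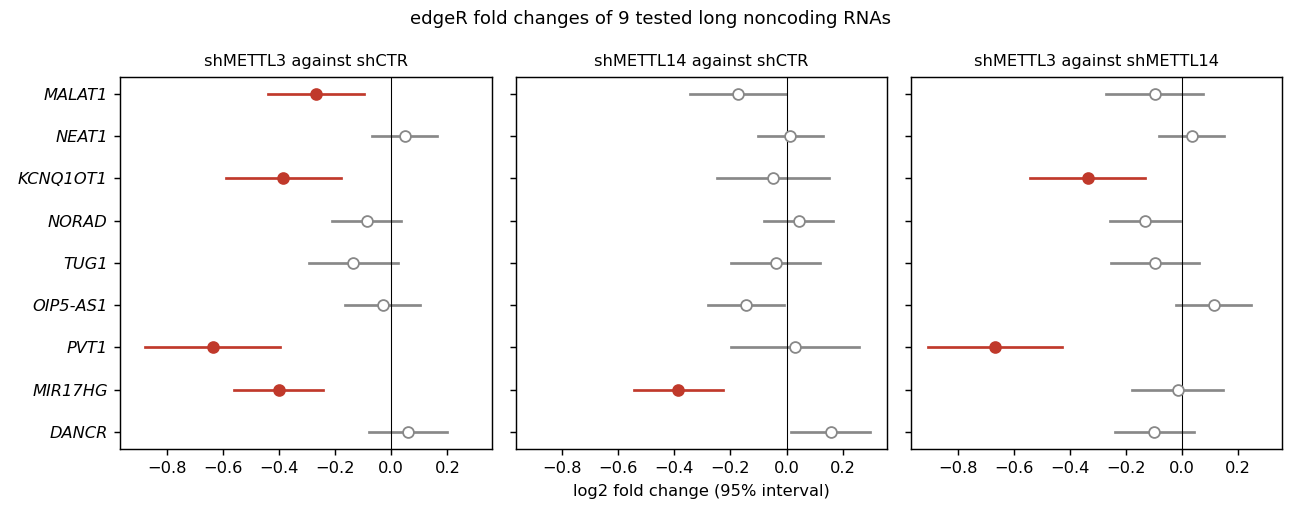
Log2 fold change of each of the 9 tested RNAs in the 3 comparisons, with its 95% interval from the edgeR fit, filled where the adjusted p is under 0.05. PVT1, MIR17HG, KCNQ1OT1 and MALAT1 are filled on the lower side in shMETTL3 against shCTR, and MIR17HG alone in shMETTL14 against shCTR.

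MALAT1 (ENSG00000251562, chr11:65497688-65506516, plus strand) is retained in nuclear speckles, where splicing factors gather. It had 8597 and 6833 reads in shCTR, 6913 and 6123 in shMETTL3, and 6567 and 7227 in shMETTL14. The first shCTR library was the highest of the 6, at 435 CPM against 357 CPM in the second, and the shMETTL3 libraries, at 352 and 305 CPM, were both below the shCTR libraries. The log2 fold change in shMETTL3 was -0.27 (SE 0.0821, 95% interval -0.44 to -0.10, adjusted p = 0.0289), from 396 ± 55.2 to 329 ± 33.1 CPM (SD, n = 2). The call was lost without shCTR replicate 1 (-0.12, adjusted p = 0.336) and without shMETTL3 replicate 2 (-0.17, adjusted p = 0.377), and with DESeq2 the adjusted p was 0.279. In shMETTL14, at 351 ± 24.3 CPM (SD, n = 2), the log2 fold change was -0.17 (SE 0.0820, adjusted p = 0.238), and one of its libraries lay above the lower shCTR library. Without shCTR replicate 2 that value was -0.31 (adjusted p = 0.0119).

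NEAT1 (ENSG00000245532, chr11:65422774-65445540, plus strand) is the scaffold of paraspeckles, and its short form is polyadenylated while its long form ends in the tract printed above. Gene-level counts hold both forms together. It had 12085 and 11068 reads in shCTR, 11798 and 12629 in shMETTL3, and 11781 and 11788 in shMETTL14, the highest counts of the 10 in every library. Its level was 595 ± 23.6 CPM in shCTR, 615 ± 20.4 in shMETTL3 and 600.4 ± 1.23 in shMETTL14 (SD, n = 2 each), and the groups overlapped in every comparison. The log2 fold change was 0.05 in shMETTL3 (SE 0.0556, 95% interval -0.07 to 0.16, adjusted p = 0.607) and 0.01 in shMETTL14 (SE 0.0557, 95% interval -0.10 to 0.13, adjusted p = 0.924). MALAT1 and NEAT1 are neighbours on chromosome 11.

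**Figure D3:**
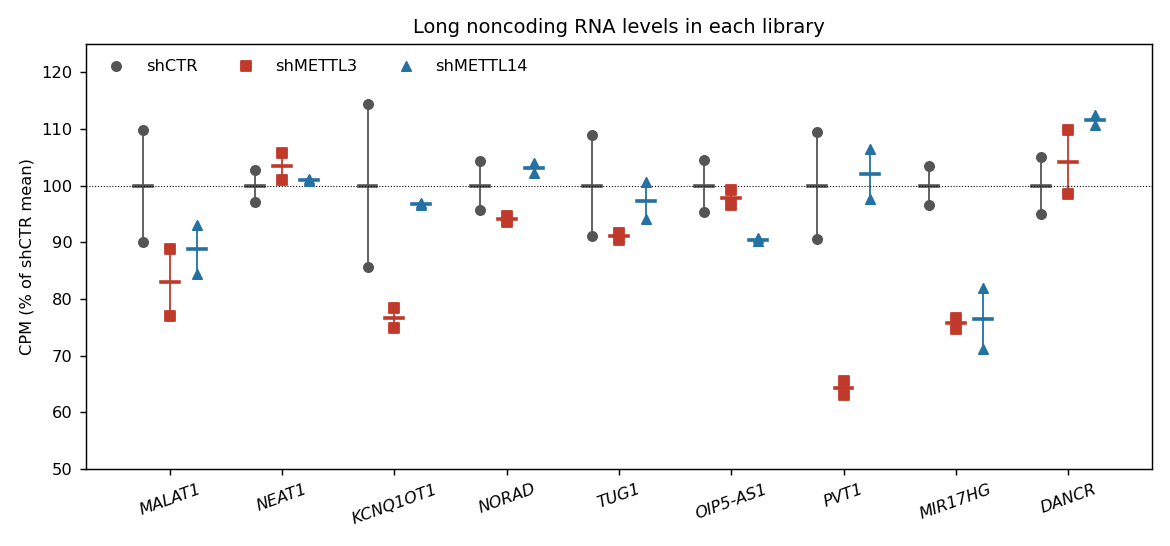
Level of each of the 9 tested RNAs as CPM in percent of its shCTR mean, with 1 symbol for each of the 2 libraries of shCTR, shMETTL3 and shMETTL14, a bar at the group mean and a line joining both libraries, on an axis that starts at 50%. PVT1 is lowest in both shMETTL3 libraries, MIR17HG is lower in all 4 knockdown libraries than in both shCTR libraries, and MALAT1 and KCNQ1OT1 are highest in 1 of the shCTR libraries.

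KCNQ1OT1 (ENSG00000269821, chr11:2608328-2699994, minus strand) is transcribed antisense from within KCNQ1 and is known for silencing imprinted neighbours such as CDKN1C on the paternal chromosome. It had 1228 and 891 reads in shCTR, 837 and 817 in shMETTL3, and 1031 and 1033 in shMETTL14. The first shCTR library stood apart at 62.1 CPM, the second had 46.5 CPM, and the shMETTL3 libraries, at 42.6 and 40.7 CPM, were the lowest of the 6. The log2 fold change in shMETTL3 was -0.38 (SE 0.0981, 95% interval -0.59 to -0.18, adjusted p = 0.0107). It was -0.16 without shCTR replicate 1 (adjusted p = 0.191), and the adjusted p was 0.0502 and 0.117 without shMETTL3 replicates 1 and 2. In shMETTL14 the level of 52.6 ± 0.158 CPM (SD, n = 2) lay between the shCTR libraries, with a log2 fold change of -0.05 (SE 0.0963, adjusted p = 0.831). The shMETTL3 libraries differed from the shMETTL14 libraries by -0.34 (SE 0.0982, adjusted p = 0.0288), a difference that fell to -0.16 (adjusted p = 0.125) with a trend on GC content and length removed.

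PVT1 (ENSG00000249859, chr8:127794533-128101253, plus strand) is a multi-exon RNA downstream of MYC, with which it is often amplified. It had 345 and 404 reads in shCTR, 248 and 244 in shMETTL3, and 370 and 402 in shMETTL14. Both shMETTL3 libraries, at 12.6 and 12.2 CPM, lay below all others, which ran from 17.5 to 21.1 CPM. Its log2 fold change of -0.64 in shMETTL3 was the largest fall of the 9, to 0.643 of the shCTR level (SE 0.115, 95% interval -0.88 to -0.40, adjusted p = 7.78e-04). In shMETTL14 it was 0.03 (SE 0.109, 95% interval -0.20 to 0.26, adjusted p = 0.915), and shMETTL3 differed from shMETTL14 by -0.67 (SE 0.115, adjusted p = 5.01e-04). The call in shMETTL3 held with each library left out, at -0.77 to -0.50 and an adjusted p of at most 0.0173.

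MYC itself, the nearest protein-coding gene before PVT1, had 7464 and 7536 reads in shCTR, 6355 and 7021 in shMETTL3, and 7405 and 7280 in shMETTL14. It fell in shMETTL3 by less than PVT1, with a log2 fold change of -0.20 (SE 0.0589, adjusted p = 0.0270), a call that was lost with library size alone as scaling, in the fit of only these groups, and without shCTR replicate 2, shMETTL3 replicate 1 or shMETTL3 replicate 2, with values of -0.25 to -0.14 over all alternatives. In shMETTL14 it was -0.04 (adjusted p = 0.732).

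MIR17HG (ENSG00000215417, chr13:91347820-91354579, plus strand) had 1348 and 1220 reads in shCTR, 994 and 990 in shMETTL3, and 922 and 1059 in shMETTL14. All 4 knockdown libraries, at 46.9 to 54.0 CPM, lay below both shCTR libraries, at 68.2 and 63.7 CPM. The level was 0.757 of shCTR in shMETTL3 (log2 fold change -0.40, SE 0.0762, 95% interval -0.56 to -0.24, adjusted p = 0.00123) and 0.765 of shCTR in shMETTL14 (log2 fold change -0.39, SE 0.0762, 95% interval -0.55 to -0.23, adjusted p = 0.00351). The difference between the knockdowns was -0.01 (SE 0.0776, adjusted p = 0.938). The shMETTL14 call was lost without shMETTL14 replicate 1 (-0.29, adjusted p = 0.170), while the shMETTL3 call held with each library left out, at -0.45 to -0.35. The counts are of the host transcript, and its mature microRNAs, being too short for such libraries, were not measured.

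NORAD (ENSG00000260032, chr20:36045622-36050960, minus strand) had 7354 and 6534 reads in shCTR, 6634 and 6700 in shMETTL3, and 7165 and 7274 in shMETTL14. Its level was 357 ± 21.8, 336 ± 2.69 and 368 ± 4.53 CPM in that order (SD, n = 2 each). Both shMETTL3 libraries were the lowest, but the log2 fold change of -0.09 did not pass the test (SE 0.0589, 95% interval -0.21 to 0.04, adjusted p = 0.341), and that in shMETTL14 was 0.04 (SE 0.0589, adjusted p = 0.731).

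TUG1 (ENSG00000253352, chr22:30969245-30979395, plus strand), a mostly nuclear RNA first described in retina, had 2749 and 2226 reads in shCTR, 2270 and 2348 in shMETTL3, and 2360 and 2520 in shMETTL14. Its first shCTR library, at 139 CPM, was again the highest, and the second, at 116 CPM, lay with the knockdown libraries. The log2 fold change was -0.14 in shMETTL3 (SE 0.0756, 95% interval -0.29 to 0.02, adjusted p = 0.240) and -0.04 in shMETTL14 (SE 0.0754, adjusted p = 0.824). Without shCTR replicate 2 the first value was -0.26 (adjusted p = 0.00810).

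OIP5-AS1 (ENSG00000247556, chr15:41283990-41309737, plus strand) had 3047 and 2693 reads in shCTR, 2797 and 2936 in shMETTL3, and 2628 and 2608 in shMETTL14. The shMETTL14 libraries, at 134 and 133 CPM, were the lowest of the 6 without passing the test, with a log2 fold change of -0.14 (SE 0.0642, 95% interval -0.28 to -0.01, adjusted p = 0.203). In shMETTL3 it was -0.03 (SE 0.0639, adjusted p = 0.796). Without shCTR replicate 2 the shMETTL14 value was -0.21 (adjusted p = 0.0340).

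DANCR (ENSG00000226950, chr4:52712404-52720351, plus strand), known for holding back differentiation of progenitor cells and host of small nucleolar RNAs, had 3752 and 4021 reads in shCTR, 3872 and 4407 in shMETTL3, and 4418 and 4338 in shMETTL14. Among the 9 tested RNAs it had the largest positive value, 0.16 on the log2 scale in shMETTL14 (SE 0.0672, 95% interval 0.02 to 0.30, adjusted p = 0.181), where both libraries, at 225 and 221 CPM, lay above both of shCTR. Without shCTR replicate 2 it was 0.23 (adjusted p = 0.0340). In shMETTL3 it was 0.06 (SE 0.0673, adjusted p = 0.595).

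The spread between the shCTR libraries bore on several of these values. The log2 ratio of the first to the second shCTR library was 0.42 for KCNQ1OT1, 0.29 for MALAT1, 0.26 for TUG1 and -0.27 for PVT1, where the median absolute ratio over all genes tested was 0.15. In the knockdown groups that median was 0.111 (shMETTL3) and 0.105 (shMETTL14). Without shCTR replicate 2, 5 of the 9 passed the threshold in shMETTL14, MIR17HG, MALAT1, KCNQ1OT1 (-0.24, adjusted p = 0.0363) and OIP5-AS1 lower and DANCR higher, and the share of all genes tested that passed rose from 6.69% to 10.3% in the same fit. Without shCTR replicate 1, 2 of 9 passed in shMETTL3, MIR17HG and PVT1, and the share of all genes was 11.4% in place of 16.5%. The groups of libraries did not overlap for 5, 3 and 6 of the 9 when shMETTL3 and then shMETTL14 were set against shCTR, and when the knockdowns were set against each other, beside 56%, 48.9% and 56.7% of all genes tested.

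**Figure D4:**
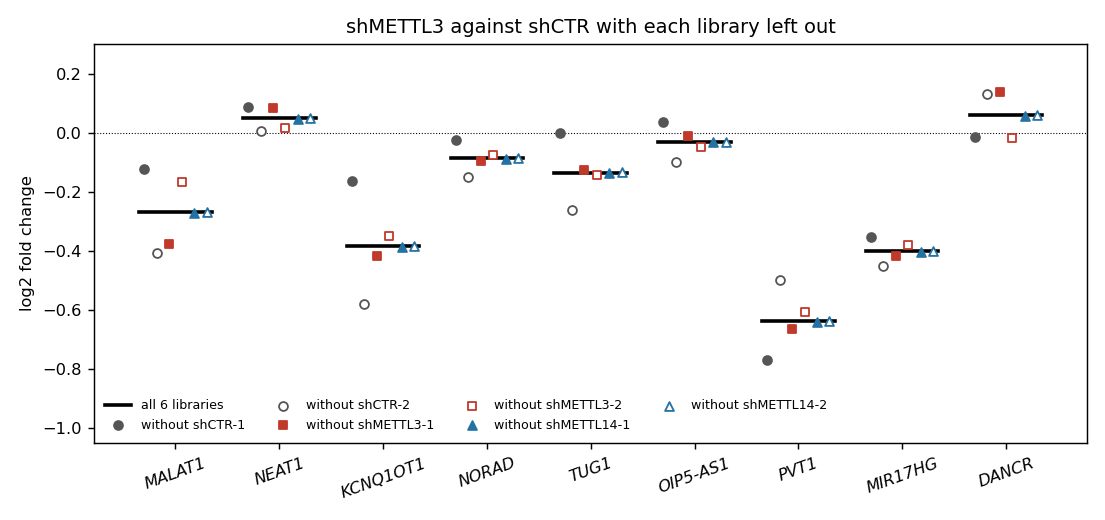
Log2 fold change of each of the 9 tested RNAs in shMETTL3 against shCTR, as a line for the fit of all 6 libraries and as a symbol for each fit with 1 library left out, its shape and colour giving the group and a filled or open symbol the first or second library of it. PVT1 runs from -0.77 to -0.50 and MIR17HG from -0.45 to -0.35, while KCNQ1OT1 and MALAT1 move to -0.16 and -0.12 without the first shCTR library.

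The annotation around these genes limits the counting. Between 0% (NORAD) and 14.4% (TUG1) of the exonic bases of a member are shared with another annotated gene. The features lying on MALAT1, NEAT1, KCNQ1OT1, TUG1 and H19 held 0 reads in every library, apart from the host gene KCNQ1 itself, with at most 2 reads, and the one on DANCR at most 24. OIP5-AS1 overlaps OIP5 on the opposite strand, and KCNQ1OT1 lies antisense in KCNQ1, and the kit described does not mark strand, so that reads from such pairs cannot be told apart. OIP5 had 181 to 202 reads in all libraries.

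Proteins that bind these RNAs or share their nuclear bodies were read from lists. Of 8 MALAT1-binding and nuclear speckle proteins, 3 fell in shMETTL3, 0 rose, and 0 passed in shMETTL14 (1 at an unadjusted p under 0.05). Among all genes tested, 7.73% fell and 8.73% rose in shMETTL3, and 6.69% passed in shMETTL14, where 3665 of 17686 had an unadjusted p under 0.05. SRSF2, a splicing factor of the SR family, had 3882 and 3491 reads in shCTR, 2840 and 2384 in shMETTL3, and 3751 and 3792 in shMETTL14 (log2 fold change in shMETTL3 -0.52, SE 0.0766, adjusted p = 9.97e-05). SRSF1 fell by 0.27 on the log2 scale (adjusted p = 0.00596) and HNRNPC, the reader of the T tract printed above, by 0.27 (adjusted p = 0.00182). SRSF1 was not called without shMETTL3 replicate 2 (adjusted p = 0.154). YTHDC1, a nuclear m6A reader, was at -0.15 (adjusted p = 0.146), and METTL16, which binds the triple helix of MALAT1, at -0.09 (adjusted p = 0.606).

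All 17 paraspeckle proteins were tested, MATR3 through an identifier with only 23 to 48 reads in each library. Of the 17, 3 fell and 1 rose in shMETTL3, with a median of -0.06. These make 23.5% of the list, beside 16.5% of all genes tested. In shMETTL14 the shares were 5.88% and 6.69%. The core proteins NONO and SFPQ, which bind along NEAT1, were at -0.06 and 0.00801 and did not pass (adjusted p = 0.516 for NONO). NUDT21, a subunit of a cleavage factor that sets where the short form of NEAT1 ends, had 6769 and 6192 reads in shCTR, 5436 and 5559 in shMETTL3, and 5004 and 5041 in shMETTL14. It fell in both knockdowns, with a log2 fold change of -0.27 in shMETTL3 (adjusted p = 0.00343, and 0.0603 without shMETTL3 replicate 2) and of -0.38 in shMETTL14 (adjusted p = 2.90e-04), where it was the only one of the 17 to pass. HNRNPH3 (-0.25, adjusted p = 0.00747, and 0.165 without shMETTL3 replicate 2) and EWSR1 (-0.25, adjusted p = 0.0169) fell in shMETTL3, and CIRBP rose (0.20, adjusted p = 0.0410). EWSR1 was not called without shCTR replicate 1 or shMETTL3 replicate 2 (adjusted p of at most 0.278) or with library size alone, and CIRBP was lost in 8 of its 13 alternatives.

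Of the 4 NORAD-binding proteins, PUM2 did not pass in shMETTL3 (0.00543, adjusted p = 0.971), while KHDRBS1 (-0.23, adjusted p = 0.00928) and RBMX (-0.22, adjusted p = 0.00928) fell, where 7.73% of all genes tested fell. The calls of KHDRBS1 and RBMX were both lost without either shMETTL3 library. In shMETTL14, 0 of the 4 passed, with 2 at an unadjusted p under 0.05, RBMX among them at -0.18 (adjusted p = 0.0512). Of all 17686 genes tested, 6.69% passed in shMETTL14, and 3665 had an unadjusted p under 0.05.

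Of 7 described miR-17-92 targets, 6 were tested. In shMETTL3, 3 rose and 0 fell, and in shMETTL14, 0 rose and 2 fell. Of all genes tested, 8.73% were higher and 7.73% lower in shMETTL3, and 3.43% higher and 3.26% lower in shMETTL14. CDKN1A, the cell cycle inhibitor p21, had 664 and 716 reads in shCTR, 1413 and 1471 in shMETTL3, and 745 and 820 in shMETTL14. Its log2 fold change was 1.03 in shMETTL3 (SE 0.0771, adjusted p = 2.94e-08) and 0.17 in shMETTL14 (SE 0.0804, adjusted p = 0.241). THBS1, an inhibitor of angiogenesis, went in opposite directions, with 355 and 332 reads in shCTR, 499 and 601 in shMETTL3 (0.65, adjusted p = 2.81e-04) and 176 and 160 in shMETTL14 (-1.04, adjusted p = 1.27e-05). E2F1, a transcription factor of the cell cycle, rose in shMETTL3 (0.49, adjusted p = 8.40e-04). BCL2L11, a pro-apoptotic factor, fell in shMETTL14 (-0.28, adjusted p = 0.0187), a call lost without either shMETTL14 library. MIR17HG, as given above, was below shCTR in both knockdowns, and a link between it and these genes was not tested.

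Of 12 genes beside the members or known to be controlled from their loci, 10 were tested, and in shMETTL3 2 rose and 3 fell, in shMETTL14 2 rose and 1 fell. The share of all genes tested that passed was 16.5% in shMETTL3 and 6.69% in shMETTL14. CDKN1C, the imprinted cell cycle inhibitor in the KCNQ1OT1 domain, had 1602 and 1654 reads in shCTR, 1395 and 1380 in shMETTL3, and 1108 and 1111 in shMETTL14. It fell in shMETTL3 (-0.26, SE 0.0663, adjusted p = 0.0106) and in shMETTL14 (-0.57, SE 0.0674, adjusted p = 1.88e-05), and was higher in shMETTL3 than in shMETTL14 (0.31, adjusted p = 0.00463). The shMETTL3 call for CDKN1C was lost without either shMETTL3 library, and its difference between the knockdowns without shMETTL3 replicate 1 or either shMETTL14 library. KCNQ1 and IGF2 had at most 3 reads in any library.

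GPC5, a glypican gene after MIR17HG, was low but rose in both knockdowns, with 25 and 11 reads in shCTR, 96 and 90 in shMETTL3 (log2 fold change 2.33, SE 0.282, adjusted p = 1.17e-05), and 50 and 54 in shMETTL14 (1.51, SE 0.305, adjusted p = 0.00428). The sizes turn on the shCTR libraries, being 3.01 and 2.19 without shCTR replicate 1 and 1.88 and 1.06 without shCTR replicate 2. FRMD8, before NEAT1, rose by a log2 fold change of 0.26 in each (adjusted p = 0.0259 and 0.0478), calls lost in 7 and 8 of 13 alternatives. MRPL23, beside H19, fell in shMETTL3 (-0.63, adjusted p = 0.0104), lost without either shMETTL3 library and without shCTR replicate 2.

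Other long noncoding RNAs were read from a list of 50, of which 49 were matched and 35 tested. In shMETTL3, 3 rose and 4 fell, with a median of -0.07, and in shMETTL14, 1 rose and 0 fell. The share called was 20% in shMETTL3, beside 16.5% of all genes tested, and 2.86% in shMETTL14, beside 6.69%. LINC00520 was the RNA that rose in both, from 207 and 236 reads in shCTR to 364 and 318 in shMETTL3 (0.59, SE 0.122, adjusted p = 0.00236) and 343 and 386 in shMETTL14 (0.70, SE 0.122, adjusted p = 0.00100). In shMETTL3, LINC00963 rose (0.37, adjusted p = 0.00236), and SLC25A25-AS1 (-0.44, adjusted p = 0.0224) and MAPKAPK5-AS1 (-0.38, adjusted p = 0.00511) fell. Leaving out shMETTL3 replicate 1 ended the shMETTL3 calls of LINC00520 (0.0550), LINC00963 (0.0714) and SLC25A25-AS1 (0.288), given as adjusted p, and leaving out shMETTL3 replicate 2 that of MAPKAPK5-AS1 (adjusted p = 0.111). SLC25A25-AS1 was not called without shCTR replicate 2, with DESeq2 or with no filter either.

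The hosts of small nucleolar RNAs, whose spliced transcripts are long noncoding and often short-lived, were a second list, with 20 of 22 tested. In shMETTL14, 8 fell and 0 rose, with a median of -0.18, and in shMETTL3, 5 fell and 0 rose, with a median of -0.12. Of all genes tested, 3.26% were lower in shMETTL14 and 7.73% in shMETTL3. SNHG1 had 8793 and 8519 reads in shCTR, 8239 and 8371 in shMETTL3, and 6393 and 6985 in shMETTL14 (log2 fold change in shMETTL14 -0.38, SE 0.0587, adjusted p = 2.95e-04). ZFAS1 fell in both (-0.48, adjusted p = 0.00819 in shMETTL14, and -0.35, adjusted p = 0.0283 in shMETTL3), and EPB41L4A-AS1 (-0.33, adjusted p = 0.00722) and SNHG7 (-0.32, adjusted p = 0.0121) fell in shMETTL14. In shMETTL3, SNHG10 (-0.34, adjusted p = 0.0304), SNHG29 (-0.28, adjusted p = 0.00248) and SNHG3 (-0.28, adjusted p = 0.00293) fell. SNHG29 was also called lower in shMETTL14 (-0.32), and its call was lost in 1 of 13 alternatives in each knockdown. Fewer hosts were called in shMETTL14 without either shMETTL14 library, and in shMETTL3 without either shMETTL3 library. In these fits, fewer of all genes tested were called as well. Fewer hosts were also called in shMETTL3 without shCTR replicate 2, where more of all genes tested were called. SNHG1 was the host still called without shMETTL14 replicate 1, and in shMETTL3 the calls of ZFAS1 and SNHG10 were lost in 8 of 13 alternatives each. DANCR, itself such a host, was not in this list and was not among those that fell.

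**Figure D5:**
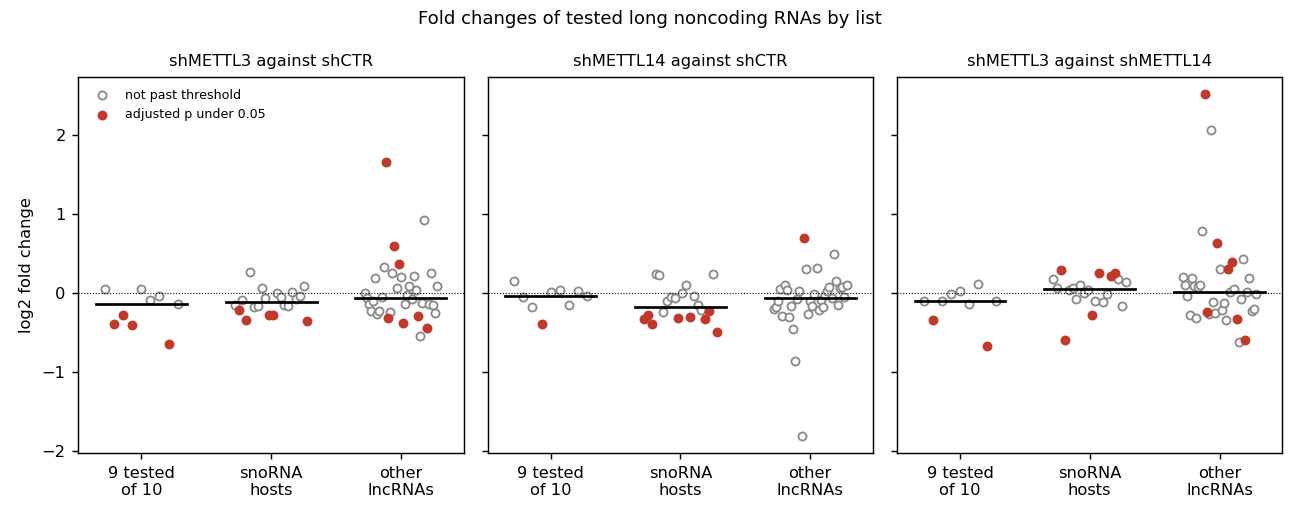
Log2 fold changes of the 9 tested RNAs, of 20 hosts of small nucleolar RNAs and of 35 other long noncoding RNAs in the 3 comparisons, filled where the adjusted p is under 0.05, with a line at each median. The filled hosts all lie below 0 in both knockdowns against shCTR, and the filled other RNAs lie on both sides in shMETTL3.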

How the data were processed

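RNA-seq of 6 K562 libraries was analysed, grouped by the submitters' labels. The authors deposited 1 table of raw read counts per gene for 61661 identifiers, 60675 of them Ensembl genes and 986 their own unnamed genes, which stayed in the totals. The labels name HTSeq 0.6.1 and hg38. Aligner, annotation, counting mode and strand setting are not given in the sources used here. Messenger RNA had been bound to oligo(dT) beads.

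Identifiers were given symbols from the gene name table and GENCODE 29, the latter also giving coordinates, exon lengths and transcripts on GRCh38. The microRNA sequences are from RefSeq (GRCh38.p14), where all names searched matched. The model was fitted with edgeR 4.0.16 (R 4.3.3) to the 17686 genes that passed filterByExpr at a minimum of 10 reads, TMM scaled the CPM, and the quasi-likelihood test over all 6 libraries gave the 3 comparisons, with Benjamini-Hochberg adjustment over all genes tested and a threshold of 0.05. Fold changes are on the log2 scale, and an SE is the log2 fold change over the root of F. The floor was set at 3 reads per library.

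Alternatives were DESeq2 1.42.0, its size factors, library size alone, no filter, a fit of only the groups compared, the replicate number as a block, removal of a trend on GC content and length (mgcv 1.9.3), and each library left out. The members and the gene lists, written from general knowledge, were chosen with earlier results of these data known. Named were every member, the 4 largest called changes of the other long noncoding RNAs and of the hosts per comparison with at least 10 reads and no overlap, and genes of the partner, neighbour and target lists. Some genes of these lists are not reported here. For the other lists the alternatives were computed after seeing the data. The authors' unnamed genes were not used here beyond the totals.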

Additional observations from a re-analysis of the deposited data

Results flagged for a closer look

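The effect of knocking down METTL3 differed from that of knocking down METTL14, by the test of the difference in the edgeR fit, for 2 of the 9 tested RNAs of the set. KCNQ1OT1 was lower in shMETTL3 than in shMETTL14 by a log2 difference of -0.34 (SE 0.0982, adjusted p = 0.0288), with 837 and 817 reads against 1031 and 1033. This call was lost without any of these 4 libraries. PVT1 was lower by -0.67 (SE 0.115, adjusted p = 5.01e-04), with 248 and 244 reads against 370 and 402, and held in every alternative.

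The 23 genes named as differing between the knockdowns were picked because they passed the threshold, 12 as higher in shMETTL3 and 11 as lower. Of all 17686 genes tested, 12.1% passed in this comparison, 6.65% as higher and 5.49% as lower. The split of 12 and 11 follows from which genes were named and is not a result about them. Of the neighbours, the log2 difference was 0.31 for CDKN1C, 1.36 for EPB41L1 (beside NORAD), 0.82 for GPC5, -2.12 for SLITRK5 (before MIR17HG, at 3 to 23 reads) and -0.33 for USP46 (before DANCR). Of the partners, it was -0.26 for SRSF1, -0.55 for SRSF2 and 0.21 for CIRBP. Of the miR-17-92 targets, it was 0.86 for CDKN1A, 0.37 for E2F1, -0.69 for TGFBR2 and 1.69 for THBS1. Of the other long noncoding RNAs, it was 0.63 for LINC00963, 0.40 for NBR2, -0.32 for NUTM2B-AS1 and -0.59 for SLC25A25-AS1. Of the hosts of small nucleolar RNAs, it was 0.30 for SNHG1, -0.59 for SNHG10, -0.28 for SNHG3, 0.26 for SNHG32 and 0.25 for SNHG7. CDKN1A, THBS1, SRSF2, EPB41L1, LINC00963 and SNHG10 kept the call in all 13 alternatives. The call was lost in 7 of 13 for SNHG7, in 6 for GPC5 and TGFBR2, in 5 for USP46, CIRBP and NUTM2B-AS1, in 3 for CDKN1C, E2F1, SRSF1, SLC25A25-AS1 and SNHG32, in 2 for NBR2 and SNHG3, and in 1 for SNHG1, each time also with a library left out. For SLITRK5 it was lost in 3 of the 11 alternatives that gave an adjusted p, and the difference was -1.18 without shMETTL14 replicate 1 (adjusted p = 0.509).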

How the results depend on the processing

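With 2 libraries a group, calls in this set rest on 3 residual degrees of freedom and the pooled spread, and a library left alone in its group was assumed to vary like the others. Outside the fits that leave out a library, 179 of 189 values of the members kept direction and side of the threshold, 6 lost a call and 4 changed sign. The MALAT1 call in shMETTL3 was lost with DESeq2 (-0.27, adjusted p = 0.279), library size alone (-0.21, adjusted p = 0.0785) and no filter (-0.27, adjusted p = 0.0524). The KCNQ1OT1 difference between the knockdowns was lost with DESeq2 (-0.34, adjusted p = 0.0574), no filter (-0.34, adjusted p = 0.0687) and the GC and length trend removed (-0.16, adjusted p = 0.125), so that 1 member was called there in each of these fits. Uncalled values changed sign for MIR17HG between the knockdowns (0.042 with the trend removed, 0.015 with library size alone), NEAT1 in shMETTL14 (-0.058 with the trend removed) and OIP5-AS1 in shMETTL3 (0.025 with library size alone). The cause was not tested.

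The other long noncoding RNAs called were 4 in shMETTL3 with DESeq2 and with no filter, 3 between the knockdowns with DESeq2, and 4 in shMETTL14 with the trend removed. The hosts called in shMETTL3 were 3 with DESeq2, with no filter and in the fit of only these groups, and 2 with library size alone. All genes called with DESeq2 were 1881, 763 and 1327 in shMETTL3, shMETTL14 and between the knockdowns, against 2912, 1184 and 2148, and 766 in shMETTL14 with no filter. Same-numbered libraries did not deviate together (r of 0.0614, 0.00511 and -0.0200). Such values cannot show whether libraries of the same number were prepared together. With the replicate block, 3264, 1459 and 2478 genes were called, the members called stayed 4, 1 and 2, and the other long noncoding RNAs called in shMETTL14 were 2.

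With each library left out, the members called were 2 to 5 in shMETTL3, 0 to 5 in shMETTL14 and 1 to 2 between the knockdowns, the other long noncoding RNAs called 2 to 7, 1 to 4 and 2 to 10, the hosts called 0 to 5, 1 to 9 and 2 to 7, and all genes 1102 to 3569, 341 to 1913 and 942 to 2953. In shMETTL3 the log2 fold change ran from -0.41 to -0.12 for MALAT1, -0.58 to -0.16 for KCNQ1OT1, -0.26 to -0.00251 for TUG1, -0.018 to 0.14 for DANCR and -0.098 to 0.035 for OIP5-AS1. In shMETTL14 it ran from -0.49 to -0.29 for MIR17HG, -0.31 to -0.023 for MALAT1, -0.24 to 0.18 for KCNQ1OT1, 0.086 to 0.23 for DANCR, -0.21 to -0.077 for OIP5-AS1, -0.16 to 0.096 for TUG1, -0.018 to 0.11 for NORAD, -0.028 to 0.054 for NEAT1 and -0.10 to 0.17 for PVT1. Between the knockdowns it ran from -0.37 to -0.30 for KCNQ1OT1, -0.20 to 0.00596 for MALAT1 and -0.11 to 0.092 for MIR17HG. Of 63 values of called genes of the other lists, 63 kept their direction and 18 their call in every alternative.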

Other observations

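Over the 6 libraries, the tested genes whose log2 CPM followed that of MALAT1 most closely were N6AMT1, a methyltransferase of translation release factors (Pearson r = 0.991), ENSG00000264918 (0.990) and AHCTF1, a nuclear pore protein (0.990), and 85 genes had an r over 0.95. For NEAT1 they were ODF3B (0.993), ENSG00000275016 (0.992) and ZFHX4 (0.987), with 20 genes over 0.95. ODF3B and ENSG00000264918 were low, with a mean log2 CPM of -0.23 and 0.505. These correlations are descriptions of 6 libraries that share groups and depth, chosen as the highest among 17686 genes.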
